A study of Mus musculus with 2 samples.

Results

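Genes named for the fibroblast growth factor (FGF) and transforming growth factor beta (TGF-beta) pathways were examined in mouse ES cells at day 0 and mouse EB cells at day 4, with 1 bead array for each. The rule took the gene symbols of FGF ligands and receptors, the FRS adaptors, the SPRY and SPRED inhibitors, the BMP, GDF, inhibin, Nodal and TGF-beta ligands, their receptors, SMAD and SMURF proteins, latent TGF-beta binding proteins and the extracellular antagonists, and left out Lefty1, Lefty2, Tdgf1 and Fst. It found 43 genes with 57 probes among the 8102 genes that could be named. The reference table lists 109 protein-coding genes that the rule would take, so 66 of them, Nodal, Bmp4, Fgf5, Fgf8, Smad2 and the SPRY genes included, are not analysed here. The labels give neither a cell line, a strain nor a culture medium and spell out neither abbreviation; ES commonly stands for embryonic stem and EB for embryoid body, an aggregate used to let stem cells differentiate. As each group holds a single sample, no test across samples was possible, and sample, array and group cannot be told apart.

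FGFs bind receptor tyrosine kinases that activate the RAS and ERK cascade, which the SPRY and SPRED proteins restrain. TGF-beta superfamily ligands assemble type I and type II receptor serine kinases, and the type I receptor phosphorylates SMAD proteins that enter the nucleus with SMAD4. In mouse embryonic stem cells FGF4 acting through ERK is known to prepare the cells for lineage commitment, while Nodal, activin and BMP signals direct which germ layers form once differentiation starts.

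The median probe was read from 38 beads in ES and 37 in EB, and the members' probes from 18 to 50 and from 24 to 55 beads. A signal is the quantile normalized bead intensity without background subtraction. The signal floor of 230.0 is the lowest EB signal with a detection score above 0.99, applied to both arrays; where the dimmer signal lay under it, the ratio was taken to the floor and is written "at least". Differences are given as log2 of EB over ES. "Higher" and "lower" stand for a 2-fold difference or more in the measured signals (1 on the log2 scale) of a gene that passed the floor in at least 1 array. The error beside a log2 difference is a bead-level standard error (SE) and holds no biological variation. Of 13 ES cell markers 9 could be named, and 8 of these, Nanog and Klf2 among them, were lower in EB (background 5.35%). The exception was Tdgf1. Of 11 markers expressed as embryoid bodies differentiate 5 could be named (Eomes, Lhx1, Lmo2, Gata4 and Otx2). All 5 were higher (background 3.72%), with Gata4 at least 1.97-fold as its ES signal was under the floor. The marker lists were chosen with earlier results of these data known, so they are no independent check of the labels.

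Of the 43 members, 28 passed the floor in at least 1 array, 21 of them in both, 4 in ES alone and 3 in EB alone. Of all 8102 named genes 3867 passed it, 3313 in both arrays, 259 in ES alone and 295 in EB alone. Fgf10 and Tgfbr3 were higher in EB, against 3.72% of the 3867 named genes above the floor. Bmp8b and Gdf15 were lower, against 5.35% of those genes. Together these are 4 of 28, and 9.08% of all genes above the floor passed the limit in either direction. At a looser 1.5-fold limit 10 members were higher (background 12.4%) and 6 lower (background 12%). The median log2 difference was 0.37 over the 28 members and 0.06 over all 3867 genes. It was -0.0041 over the 34 members that a looser detection limit in ES admits, against 0.0015 over all genes so admitted. The members added there entered through their ES signal, so a negative difference was partly a condition of their being counted. In the series value table the median was 0.71 over the 28, against 0.09 over all genes. The size and direction of the median thus depend on these choices. Over the 21 members above the floor in both arrays it was 0.57, with 13 positive and 8 negative, against 0.06 and 55.7% positive over the 3313 genes that passed both. The difference exceeded 2 bead-level SE for 24 of the 28 members, against 68.3% of all genes above the floor.

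**Figure D1:**
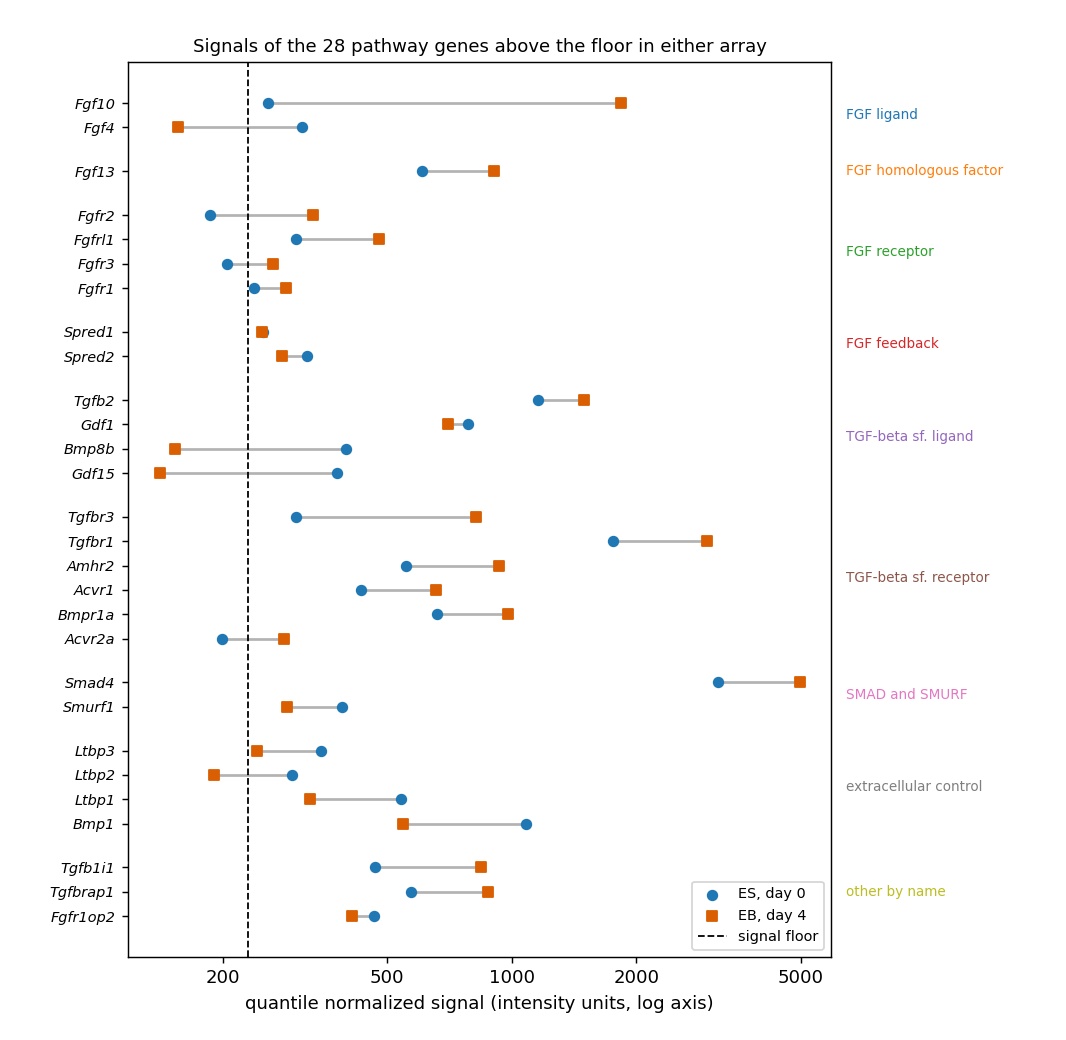
Quantile normalized signal (log axis) of each member above the floor in either array, in ES (circles) and EB (squares), ordered by role, with the signal floor of 230.0 as a dashed line. Receptor genes have the EB square to the right of the ES circle; the genes of extracellular control have it to the left.

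Among the FGF ligands the 2 genes above the floor differed in opposite directions. Fgf4 passed the floor through ES alone, so its negative difference was partly a condition of its being counted. Fgf10, which signals mainly through the IIIb form of FGFR2 and drives limb and lung outgrowth, read 257 in ES and 1834 in EB by its brighter probe (identifier scl0014165.1_114-S). That is a 7.14-fold difference, a log2 difference of 2.84 with an SE of 0.12, and the 7th highest of the 3867 genes above the floor. The ES signal lay just over the floor. The second Fgf10 probe gave 164 in ES and 452 in EB, with an ES signal under the floor and a log2 difference of 1.46 (SE 0.11). In the measured signals both probes thus passed the size limit in the same direction, with sizes that differed by 1.38 on the log2 scale. Taken to the floor, the ratio of the second probe would fall short of 2-fold, so its size rests on a signal in the background range. The mean over both probes was 2.15, and the series value table gave 4.48 for the brighter one.

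Fgf4, the FGF that undifferentiated ES cells make themselves, read 310 in ES and 156 in EB, the latter under the floor. Its ratio was at least 1.35-fold, and its log2 difference of -0.99 (SE 0.13) stopped just short of the limit. Without quantile normalization it was -1.03, and with normexp background correction -1.40, past the limit in both. With signals set to the floor it was -0.43. The other 5 FGF ligands were under the floor in both arrays. They were Fgf6, Fgf7, Fgf18, Fgf22 and Fgf9, of which Fgf9 came nearest in EB, with a signal of 203 and a detection score of 0.96. Fgf13 carries the FGF name but is an intracellular protein that binds sodium channels and microtubules. Its brighter probe read 607 in ES and 907 in EB (log2 difference 0.58, SE 0.10), and its dimmer probe 237 and 263 (0.15, SE 0.11).

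The DNA just before the annotated start of both FGF ligand genes is shown because these are the ligands the comparison turns on. Each run is the 250 bases before the most upstream start, 5′ to 3′ on the gene's strand, from the RefSeq promoter table of GRCm38.p6. Capitals mark matches on either strand to any of 4 motifs, none of which overlapped in the windows shown. The GC box, bound by SP1, was searched as GGGCGG. The box bound by the TATA-binding protein was searched as TATAAA. The octamer bound by POU factors was searched as ATTTGCAT. The SMAD box was searched with 1 flanking base, as CAGACA. Fgf10 lies at chr13:118714449-118714698 on the plus strand and Fgf4 at chr7:144861136-144861385 on the plus strand.
Fgf10: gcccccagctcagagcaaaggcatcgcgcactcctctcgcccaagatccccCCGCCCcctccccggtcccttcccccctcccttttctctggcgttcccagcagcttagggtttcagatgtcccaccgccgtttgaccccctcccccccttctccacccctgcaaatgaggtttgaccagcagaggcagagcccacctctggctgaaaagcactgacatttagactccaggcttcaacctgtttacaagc
Fgf4: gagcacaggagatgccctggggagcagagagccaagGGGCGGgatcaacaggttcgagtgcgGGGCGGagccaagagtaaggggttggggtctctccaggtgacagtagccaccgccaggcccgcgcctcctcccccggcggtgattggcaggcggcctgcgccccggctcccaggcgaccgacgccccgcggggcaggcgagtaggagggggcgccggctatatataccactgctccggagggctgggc
The Fgf10 window held 1 GC box, beginning 199 bases before the start, and 8 CpG dinucleotides. The Fgf4 window held 2 GC boxes, beginning 214 and 188 bases before the start, and 21 CpG dinucleotides. Neither window held the TATA box, the octamer or the SMAD box as spelled here.

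The 4 FGF receptor genes that could be named had positive differences (background 55.3%), each short of the 2-fold limit. Fgfr2, whose IIIb form is the main receptor of FGF10, read 187 in ES and 330 in EB, at least 1.43-fold (log2 difference 0.82, SE 0.14). Fgfrl1, a receptor without a kinase domain, had 300.0 in ES and 476 in EB (0.67, SE 0.12). Fgfr3 gave 205 in ES and 265 in EB (0.37, SE 0.11), and Fgfr1 238 and 284 (0.26, SE 0.14). The Fgfr1 difference was within 2 SE, and its probe had the fewest beads of any member in ES, 18. Fgfr2 and Fgfr3 entered through EB alone, so a positive difference was partly a condition of their being counted. With normexp background correction Fgfr2 passed the limit (1.10), where 212 of all 3867 genes above the floor were higher. By the series value table, Fgfr2 (2.79), Fgfr3 (1.43) and Fgfrl1 (1.33) passed it, 3 of the 4 receptors. That setting called 527 of the 3867 genes higher, against 144 in the main values, so this count says little of the receptors in particular.

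The SPRED genes, whose products block activation of the kinase RAF by RAS, showed small differences. Spred1 read 249.8 in ES and 248.8 in EB (log2 difference -0.0061, SE 0.11). Spred2 had 320 in ES and 279 in EB (-0.20, SE 0.09), and its second probe, under the floor in both arrays, gave -0.23.

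Among the TGF-beta superfamily ligands 4 of 10 were above the floor, and 2 of these were lower in EB (background 5.35%). Both passed the floor through ES alone, so a negative difference was partly a condition of their being counted. Gdf15, a stress-induced ligand that signals through the receptor GFRAL, read 379 in ES and 141 in EB (identifier scl023886.1_155-S). Its log2 difference was -1.42 (SE 0.13) and its ratio at least 1.65-fold. Bmp8b, a BMP with a known part in the founding of mouse germ cells, had 398 in ES and 153 in EB (log2 difference -1.38, SE 0.15), at least 1.73-fold. Both EB signals were under the floor. The 2-fold size therefore rests on signals in the background range, and with signals set to the floor the log2 differences were -0.72 for Gdf15 and -0.79 for Bmp8b. Bmp8b has a close paralog, Bmp8a, so that the signal of its probe may not be its own alone.

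The windows before the start of these 2 genes are given in the same way as for the FGF ligands. Bmp8b lies at chr4:123104911-123105160 on the plus strand, and Gdf15, with 2 starts in the table, at chr8:70632457-70632706 on the minus strand.
Bmp8b: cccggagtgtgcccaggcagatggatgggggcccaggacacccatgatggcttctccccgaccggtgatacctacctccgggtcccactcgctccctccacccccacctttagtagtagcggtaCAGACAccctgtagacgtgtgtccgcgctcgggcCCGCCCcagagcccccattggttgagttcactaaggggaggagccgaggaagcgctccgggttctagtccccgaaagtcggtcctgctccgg
Gdf15: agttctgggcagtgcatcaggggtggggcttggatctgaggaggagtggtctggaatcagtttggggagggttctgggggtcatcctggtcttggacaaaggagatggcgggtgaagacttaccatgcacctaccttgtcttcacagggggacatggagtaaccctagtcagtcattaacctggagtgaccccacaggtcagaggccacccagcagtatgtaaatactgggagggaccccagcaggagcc
The Bmp8b window had a GC content of 65.2%, 17 CpG dinucleotides, 1 GC box and 1 match to CAGACA, which began 92 and 126 bases before the start. The Gdf15 window had 56.4%, 1 CpG dinucleotide and none of the 4 motifs. Of the 43 members 34 had an entry in the promoter table, and 24 of these windows (70.6%) held a GC box, against 48.9% of 6383 windows of named genes and 33% of all 27025 windows of this length, 1 per gene. TATAAA was in 8.82% of the members' windows, against 10.6% and 13%. CAGACA was in 14.7%, against 14.2% and 17.1%, and the octamer in 0 of 34, against 1.57% and 1.62%. The members' median GC content was 63.8%, against 57.2% for named genes and 52% for all windows. These counts describe letters in the windows and say nothing of binding.

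The other 2 ligands above the floor passed it in both arrays. Tgfb2, a TGF-beta isoform of heart and mesenchyme development, read 1154 in ES and 1495 in EB (log2 difference 0.37, SE 0.06). Gdf1, a partner of Nodal in germ layer and left-right patterning, had 783 in ES and 702 in EB (-0.16, SE 0.10), within 2 SE. Its coding region lies on a transcript shared with Cers1, so the signal may not stand for Gdf1 alone. Bmp6, Gdf5, Gdf6, Gdf10, Gdf11 and Tgfb3 were under the floor in both arrays, and Gdf10 came nearest in EB with a signal of 204.

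Of the 9 TGF-beta superfamily receptor genes, 6 passed the floor, all with positive differences (background 55.3%). Acvr2a passed it through EB alone, so its positive difference was partly a condition of its being counted. By the 2-fold rule 1 of the 6 was higher (background 3.72%). Tgfbr3 encodes betaglycan, a co-receptor that presents TGF-beta2 and inhibin. It read 301 in ES and 818 in EB (identifier scl021814.1_6-S), a 2.72-fold difference with a log2 value of 1.44 (SE 0.09), the 63rd highest of all genes above the floor. Both signals exceeded the floor, and the series value table gave a log2 difference of 2.43.

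The type I receptors differed less. Tgfbr1, the TGF-beta type I receptor ALK5, had 1759 in ES and 2965 in EB by its brighter probe (log2 difference 0.75, SE 0.10). Its second probe was under the floor in both arrays, at 189 in ES and 185 in EB, so the difference rests on 1 probe, and the mean over both probes was 0.36. Acvr1, the BMP type I receptor ALK2, had 433 in ES and 654 in EB (0.60, SE 0.10). Bmpr1a, the BMP type I receptor ALK3 that mouse gastrulation requires, gave 658 and 977 by its brighter probe (0.57, SE 0.11) and 354 and 476 by the dimmer one (0.43, SE 0.11). Its probes thus gave like values.

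Type II receptors were represented by Amhr2 and Acvr2a. Amhr2, the receptor of anti-Mullerian hormone, had 553 in ES and 932 in EB (0.75, SE 0.09). Acvr2a, which binds activins and several BMPs, had 199 in ES, under the floor, and 281 in EB (0.50, SE 0.15). Acvr1b, Bmpr1b and Tgfbr2 were under the floor in both arrays, so of the TGF-beta receptor pair Tgfbr1 and Tgfbr2 the array measured 1 partner.

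Taking both families, 10 of 13 receptor genes passed the floor, and 3 of these, Fgfr2, Fgfr3 and Acvr2a, did so through EB alone. The 7 that passed it in both arrays, Fgfr1, Fgfrl1, Acvr1, Amhr2, Bmpr1a, Tgfbr1 and Tgfbr3, all had positive differences, with a median of 0.67. The share of positive differences was 55.7% over the 3313 genes above the floor in both arrays. Positive differences were not particular to these receptors. Axon and vessel guidance genes above the floor in both arrays had 10 positive and 1 negative, with a median of 0.69. WNT, Notch and Hedgehog genes had 5 positive and 3 negative, with a median of 0.17. Leaving out quantile normalization changed the 7 receptor differences little, as for Fgfr1 from 0.26 to 0.19, so their kept signs say little of stability. The mean over probes could alter only Bmpr1a and Tgfbr1, which have a second probe, and gave 0.50 and 0.36. The receptor counts are over 2 arrays, and more cells with a receptor or more of its RNA in each cell cannot be told apart.

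**Figure D2:**
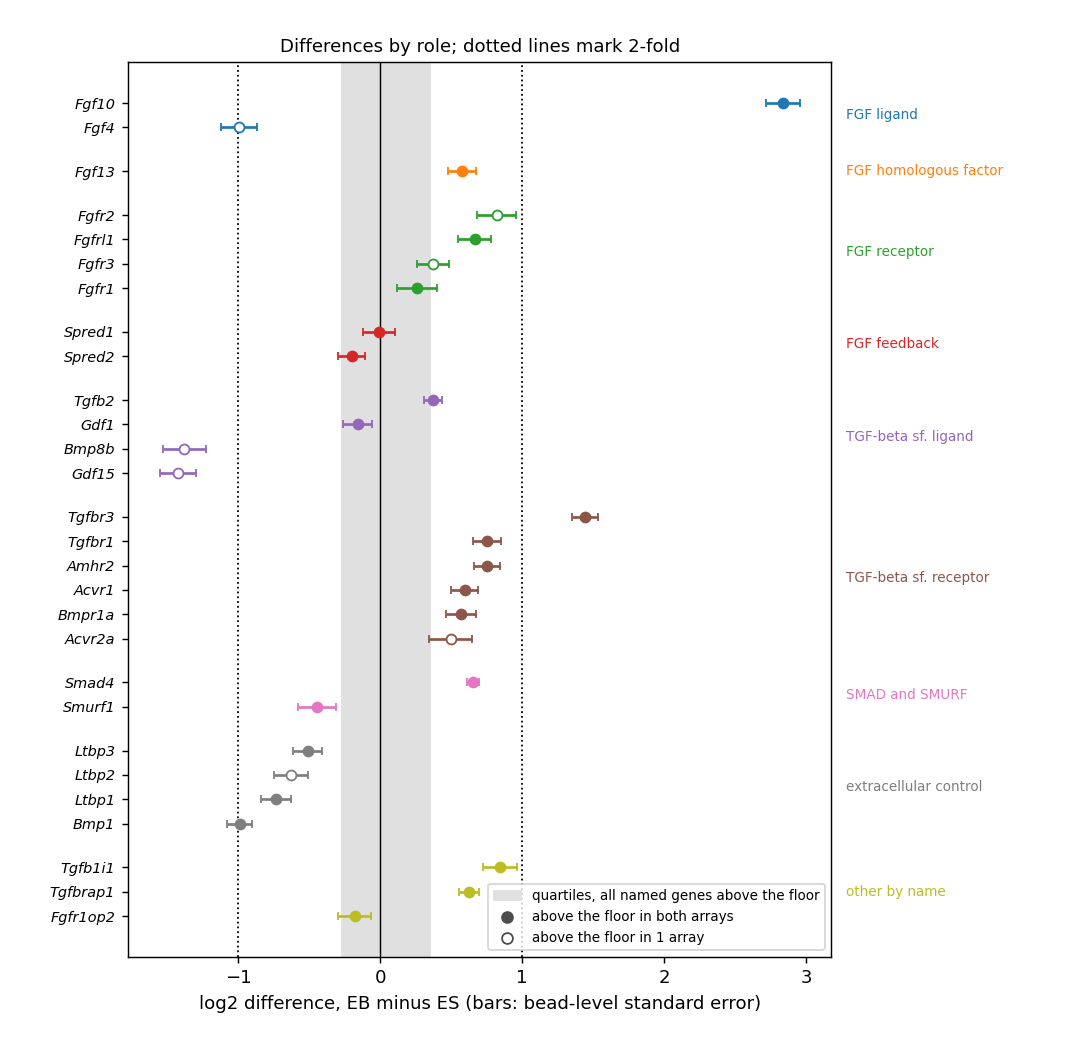
Log2 difference, EB minus ES, of each member above the floor, grouped by role, with bead-level standard errors as bars; open symbols passed the floor in 1 array, the grey band spans the quartiles of all 3867 named genes above the floor (-0.26 to 0.35) and dotted lines mark 2-fold. Receptor genes lie to the right of 0, from 0.26 for Fgfr1 to 1.44 for Tgfbr3, and Bmp1 and the LTBP genes to the left.

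Downstream of the receptors, Smad4, the partner shared by the TGF-beta and BMP branches, read 3153 in ES and 4961 in EB. Its log2 difference was 0.65 with an SE of 0.04, a 1.57-fold difference. Smurf1, a ubiquitin ligase that marks BMP SMADs and receptors for breakdown, had 389 in ES and 286 in EB by its brighter probe (-0.44, SE 0.13). The second Smurf1 probe gave -0.48 (SE 0.16), with signals of 272 and 195.

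Of 5 genes of proteins that hold or release ligands outside the cell, 4 passed the floor, all with negative differences, where 1720 of all 3867 genes were negative. Bmp1, a metalloprotease that cleaves procollagen and the BMP antagonist chordin, read 1085 in ES and 546 in EB. Its log2 difference of -0.99 (SE 0.09, 1.99-fold) stopped just short of the limit, and with normexp background correction it was -1.08. Ltbp1, which anchors latent TGF-beta in the matrix, had 539 in ES and 325 in EB (-0.73, SE 0.11). Ltbp2, a microfibril protein that does not bind latent TGF-beta, had 294 in ES and 190.4 in EB, the latter under the floor (-0.63, SE 0.12). Ltbp3 had 345 in ES and 243 in EB (-0.51, SE 0.10), and its second probe, under the floor in both arrays, gave -0.28. Ltbp2 entered through ES alone, so a negative difference was partly a condition of its being counted. Chrdl1, a chordin-like BMP antagonist, was under the floor in both arrays.

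These matrix-associated genes are also made by fibroblasts, which serve as feeder cells in some ES cultures, and the labels do not say whether feeders were present. Of 6 fibroblast markers that could be named, 4, Col1a2, Col3a1, Postn and Dcn, were under the floor in both arrays. Col1a1 read 2602 in ES and 1007 in EB, and Fbln2 had 365 and 2205. The summed signal of the 6 was 3583 in ES and 3818 in EB. The part of fibroblasts in the differences of Bmp1 and the LTBP genes was not tested.

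The symbols of 3 members resemble pathway names while their products act elsewhere or at the edge of the pathway. Tgfb1i1, which encodes the focal adhesion protein HIC-5, had 468 in ES and 843 in EB (0.85, SE 0.12), and its second probe gave 0.74 (SE 0.09). Tgfbrap1, an endosomal tethering protein first found through its binding to TGF-beta receptors, had 569 in ES and 877 in EB (0.62, SE 0.07). Fgfr1op2, a coiled-coil protein known from a fusion with FGFR1, gave 464 and 410 (-0.18, SE 0.12), within 2 SE. Without these 3 the median over the 25 members left above the floor was 0.37.

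Repeat probes show how far readings of the same gene can differ. Of the 13 members with more than 1 probe, 5 had at least 2 probes above the floor, namely Fgf10, Fgf13, Bmpr1a, Smurf1 and Tgfb1i1. In all 5 the 2 brightest probes had the same sign. The second probe passed the floor through EB alone for Fgf10 and through ES alone for Smurf1, so these signs were partly a condition of being counted. Where the second probe was under the floor in both arrays, its sign was the other one for Tgfbr1 (-0.03) and Fgfr1op2 (0.10). It was the same for Ltbp3 and Spred2. The share of like signs over all genes with several probes was not computed. The other 30 members had 1 probe.

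**Figure D3:**
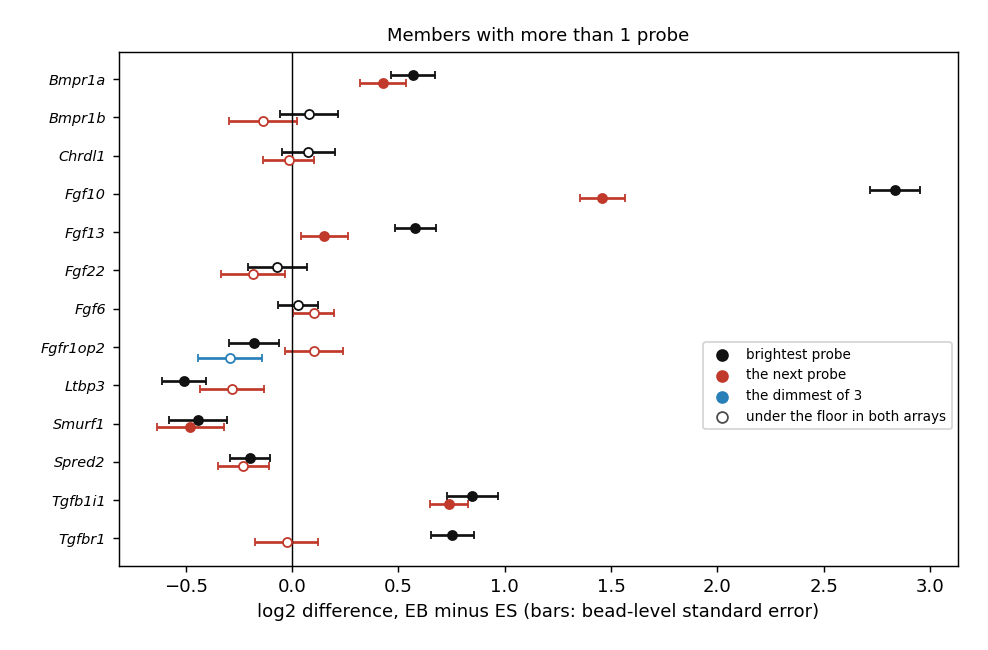
Log2 difference, EB minus ES, of every probe of the 13 members with more than 1 probe, with bead-level standard errors as bars and open symbols for probes under the floor in both arrays. The 2 probes of Fgf10 lie at 2.84 and 1.46, and the dimmer probe of Tgfbr1 lies at -0.03 beside 0.75 for the brighter one.

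A list of 62 further pathway genes was examined, from signal transducers and transcription factors to extracellular modulators; 25 could be named and 18 passed the floor. By the 2-fold rule 0 were higher (background 3.72%) and 1 was lower (background 5.35%). The lower gene was Fgfbp1, a carrier that frees FGFs from the matrix, with 297 in ES and 146 in EB, the latter under the floor (log2 difference -1.02, SE 0.17; at least 1.29-fold). The series value table gave 6 higher and 3 lower, against 527 higher and 468 lower of all 3867 genes above the floor. With signals set to the floor 0 were lower, against 180 of the 3867. Of the 18 genes, 2 of which passed the floor through EB alone, 13 had positive differences (background 55.3%), with a median of 0.40 against 0.06 over all genes. Id3, a direct target of BMP signalling, came nearest to the limit on the higher side, with 1253 in ES and 2457 in EB (0.97, SE 0.10).

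Values short of the limit were also measured for Zeb2, a SMAD-binding repressor (219 in ES, under the floor, and 415 in EB; 0.92, SE 0.11). Flrt3, a membrane protein that binds FGF receptors, gave 886 and 1605 (0.86, SE 0.08). Twsg1, a BMP-binding protein, had 1978 in ES and 3166 in EB (0.68, SE 0.09), and Mapk3, which encodes ERK1, 403 and 625 (0.63, SE 0.09). Eng, the co-receptor endoglin, had 385 in ES and 257 in EB (-0.58, SE 0.11). These genes were picked from the list by the size of their values.

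Other signalling families were set beside these genes. Of 26 named WNT, Notch and Hedgehog genes 12 passed the floor, with 2 higher, 1 lower and a median log2 difference of 0.24. Of 40 axon and vessel guidance genes 20 passed it, with 4 higher, 2 lower and a median of 0.48. Over all genes above the floor 3.72% were higher and 5.35% lower, with a median of 0.06. Of the 12 genes 3 passed the floor through EB alone and 1 through ES alone, and of the 20 genes 5 and 4. The median of the FGF and TGF-beta genes, 0.37, lies between 0.24 and 0.48, and no test of the difference was possible with 1 array per group.

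**Figure D4:**
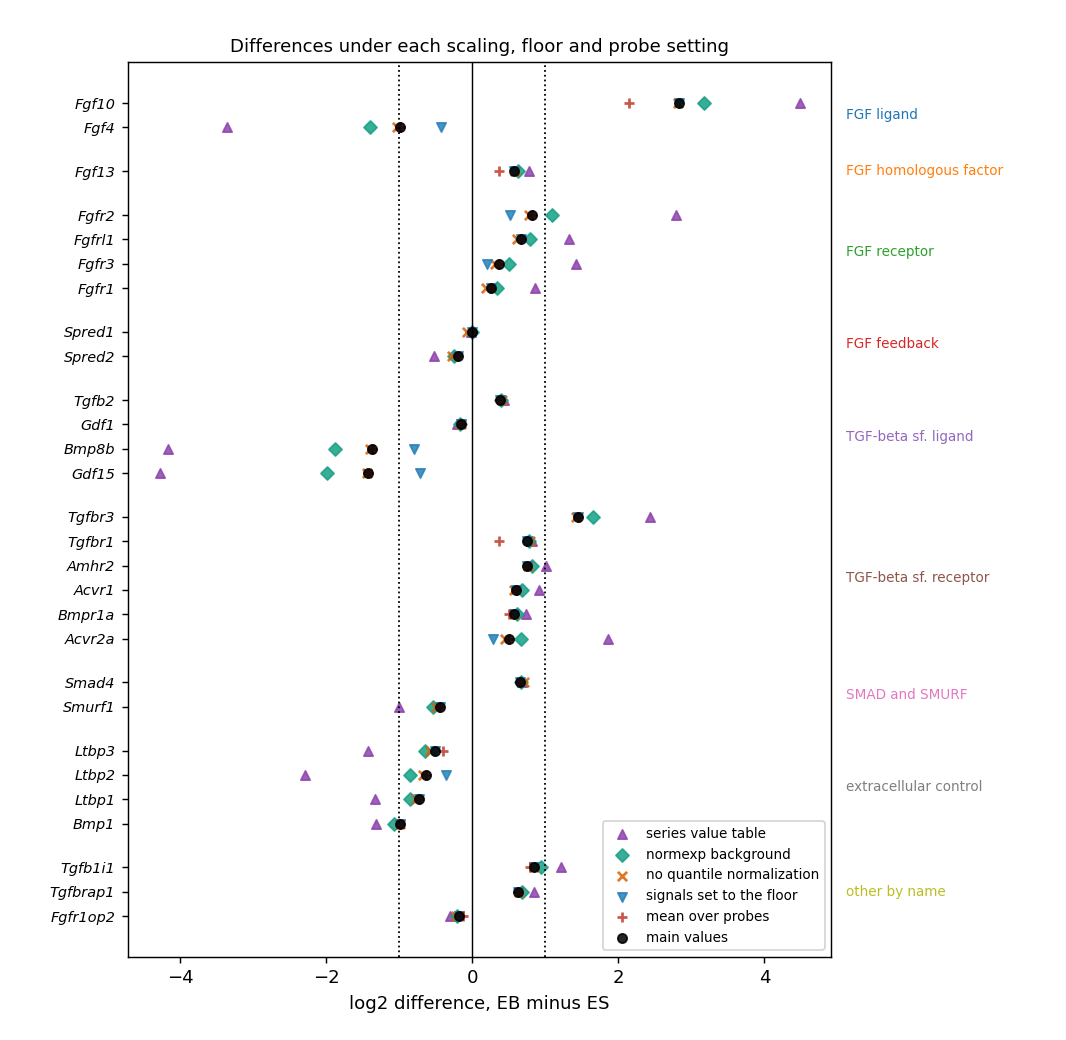
Log2 difference, EB minus ES, of each member above the floor in the main values (black) and under 5 alternatives, grouped by role, with dotted lines at 2-fold. For some dim genes the series table lies far from the main values, as for Gdf15 at -4.28 against -1.42.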

How the data were processed

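Total RNA of 2 mouse samples was hybridised to 1 bead array each. The deposited sample files hold the mean bead intensity of each probe, exported by BeadStudio 2.3.41 without normalization, per the file headers. They also give the count of beads per probe, the spread between beads and, for EB alone, a detection score deposited as a fraction. The spread fell with the bead count (slopes of -0.44 and -0.47 on log scales), so it was read as a standard error. BeadStudio 2, RMA and limma appear in the submitters' processing notes, with no role stated. The deposited series table of intensity served as an alternative.

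Both arrays were quantile normalized together and differences taken as log2, with no background step (Python 3.11.15, numpy 2.4.6; limma 3.58.1 in R 4.3.3 for the normexp alternative, offset 50). The script was tested on simulated data with changes planted in bright probes and bead-level noise alone. Genes dim in both arrays, such as Gdf15 and Bmp8b, were not covered by that test. Zero-padded numbers of at least 10000 in the identifiers were read as NCBI Gene numbers; 9796 of 11857 such probes matched the RefSeq table of GRCm38.p6, which gave 8102 genes. The probe with the highest mean log2 signal stood for a gene. Every member is named; signals in both arrays are given at an absolute log2 difference of at least 0.58 or a signal of at least 1000, and often below that. Alternatives changed the scaling, background, floor, detection, probe choice and size limit. The members, the gene lists and the settings were chosen with earlier results of these data known. The array's genome build is not given in the sources used. No sample was left out.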

Additional observations from a re-analysis of the deposited data

How the results depend on the processing

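No paired analysis was possible because there is 1 sample per group, and none could be left out for the same reason. The series value table, normexp background and signals set to the floor leave the share of positive differences over all genes at 55.34%, so kept signs there say nothing of stability. Of 189 single values over the 28 members 34 moved by more than 2 bead-level standard errors. Many of the 189 could not move, so this share says little of stability. The 2 detection alternatives change only which genes are counted. The mean over probes cannot alter a gene with 1 probe, nor signals set to the floor a gene above it in both arrays. The 2 members higher in EB became 8 in the series value table and 10 at a 1.5-fold limit. The 2 lower ones became 7 in the series value table, 4 with normexp background, 6 at the 1.5-fold limit, and 0 with signals set to the floor or with the floor passed in both arrays, since both EB signals lie under it. The series value table stretches dim signals and called 25.7% of all genes above the floor, against 9.08% in the main values. The members' median was 0.71 in the series value table and -0.0041 with the looser detection in ES. The latter added 6 members in the background range through their ES signal, and the median over all genes was 0.0015 there. Of the further pathway genes, 6 were higher in the series value table, 1 without quantile normalization, 2 with normexp background and 5 at the 1.5-fold limit, against 0; the lower count of 1 became 3 in the series value table and 0 with signals set to the floor or with the floor passed in both arrays. Signal over background limits Gdf15, Bmp8b, Fgf4, Ltbp2, Fgfr2, Fgfr3 and Acvr2a, each under the floor in 1 array.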
